A study of Rattus norvegicus with 6 samples.

Results

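The heat shock chaperones examined here are 10 genes, Hspa1a, Hspa1b, Hspa8, Hsph1, Dnajb1, Hsp90aa1, Hsp90ab1, Hspb1, Hspd1 and Hspe1, taken from the deposited gene counts by their symbols. All 10 symbols were found, and they occupied 12 of the 17048 rows, because Hspa8 stands on 3 rows. The whole table carries 16881 different symbols. Of the 10 genes, 8 encode chaperones of the cytosol and 2, Hspd1 and Hspe1, encode the chaperonin of the mitochondrial matrix, so that the members fall into a cytosolic group of 10 rows and a mitochondrial group of 2 rows. The genes were selected with their differences from the High film already known, and all of their values against High are therefore a description without a test.

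Chaperones bind unfolded or partly folded proteins and keep them from aggregating until they fold. HSP70 proteins do this with J-domain partners, which deliver substrates and stimulate ATP hydrolysis, and with HSP110 proteins, which exchange the nucleotide, while HSP90 acts later on proteins that are near their final form. When unfolded proteins accumulate, heat shock factor 1 (HSF1) leaves its chaperone partners, forms trimers and binds heat shock elements, promoter sequences built from GAA units in alternating orientation. Hspa1a, Hspa1b, Dnajb1 and Hspb1 are known for low levels without stress and strong induction by it, whereas Hspa8 and Hsp90ab1 are known as constitutive forms made in nearly every cell.

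The data are RNA-seq counts of rat neural stem/progenitor cells (NSPCs) with the genotype WT, derived from the telencephalon of Sprague-Dawley embryos, expanded as neurospheres and cultured on coated carbon films for 24 h in stemness-maintaining medium. The films differed in conductivity, and the 6 libraries are 2 for the High film, 2 for the Medium film and 2 for the Low film. The authors call the conductivity of High supraphysiological and that of Medium and Low neural tissue-like. All films were of carbon nanotubes and graphene oxide nanoribbons under poly-D-lysine and laminin, and High serves as the reference, since no other substrate was analysed here. The authors set the conductivity by the oxidation time and used less poly-D-lysine on Medium to match the bound laminin. The parts of oxidation and coating dose in the values were not tested. The labels do not say whether 2 libraries of a film came from separate cultures, and the p-values given then measure only the spread between these libraries, which may be technical.

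Of the 10 genes, 8 had a promoter window in the RefSeq annotation of the GRCr8 assembly, which is a later build than the rn6 build named in the submitters' processing notes. Each window holds 300 bases, 250 before the transcription start and 50 after it. Hspa1b and Hsp90aa1 had none. The windows were searched on both strands for 2 adjacent units of the heat shock element, GAANNTTC or TTCNNGAA, for longer runs of the alternating units GAA and TTC with any 2 bases between them (these contain the 2-unit motif), for CCAAT, for TATAAA and for GGGCGG. The following sequences are shown because they are the longest runs of the 6 windows that held any, and where a window held only 2-unit runs, the run nearer to the transcription start. Each is written 5′ to 3′ on the strand of its gene, and the capitals mark the run of units.
Hspa8, chr8:50080289-50080325, plus strand, 3 units: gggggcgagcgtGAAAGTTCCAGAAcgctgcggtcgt
Hspa8, chr8:50080447-50080483, plus strand, 3 units: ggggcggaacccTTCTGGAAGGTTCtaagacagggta
Hsph1, chr12:10427320-10427356, plus strand, 3 units: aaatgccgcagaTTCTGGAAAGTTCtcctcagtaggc
Hspd1, chr9:64084250-64084287, minus strand, 4 units: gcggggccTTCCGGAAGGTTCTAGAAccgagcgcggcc
Hspe1, chr9:64084250-64084291, plus strand, 4 units: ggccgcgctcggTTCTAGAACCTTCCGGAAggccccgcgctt
Dnajb1, chr19:41431134-41431163, minus strand, 2 units: cgggaggggcgGAAGGTTCtggagggctgg
Hspb1, chr12:26432391-26432422, minus strand, 2 units: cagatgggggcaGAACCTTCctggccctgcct

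At least 1 match of 2 units lay in 6 of the 8 windows (75%), against 15.9% of all 33469 RefSeq windows of that length and 19.2% of 104 windows of other chaperone and co-chaperone genes. A run of 3 units lay in 4 of the 8 windows (50%), against 0.798% of all windows. Both shares count Hspd1 and Hspe1 as separate windows, although these windows hold the same run. The first Hspa8 run began 213 bases before the transcription start and the second 55 bases before it, and the 3-unit run of Hsph1 began 36 bases before it. In Dnajb1 the run shown began 11 bases before the start, and a further 2-unit match lay after it. The Hspb1 run shown began 109 bases before the start and another 129 bases before it, and a 2-unit run of Hsph1 began 105 bases before its start. Runs of 4 units occurred in 16 windows of the whole table (0.0478%), of which 2 were those of Hspd1 and Hspe1. These 2 genes are transcribed in opposite directions from starts 290 bases apart, their windows share 211 bases, and their 4-unit run is the same 18 bases read from either strand, 225 to 242 bases before the Hspd1 start and 48 to 65 bases before the Hspe1 start. The windows of Hspa1a and Hsp90ab1 held no heat shock element of 2 or more units. The Hspa1a window also held no match of any other motif searched. Whether its annotated transcription start is the one in use was not tested, and Hspa1b had no window. The search therefore cannot tell whether the inducible HSP70 genes have heat shock elements. The GC box GGGCGG lay in 7 of the 8 windows (87.5%, all windows 33.1%), CCAAT in 4 (50%, all windows 37.5%) and TATAAA in 0 (all windows 14.2%). A match describes the letters only, since no binding was measured in these libraries.

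**Figure D1:**
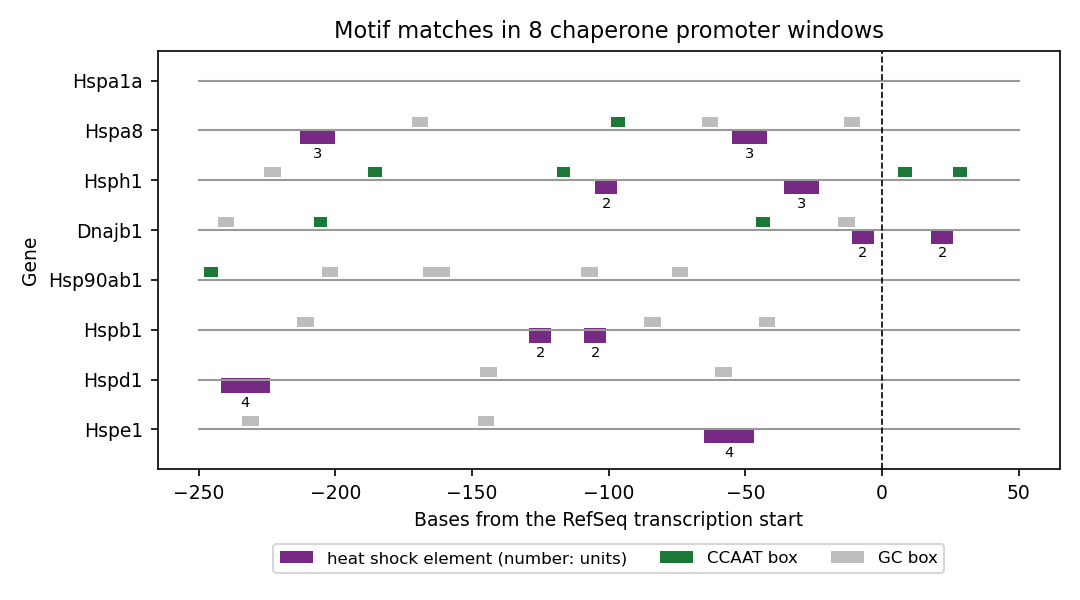
Motif matches in the 8 RefSeq promoter windows of the chaperone genes, with bases from the transcription start on the horizontal axis and 1 gene per line. Purple bars are runs of the heat shock element with their number of units, green bars are CCAAT boxes and grey bars are GC boxes, and 6 of the 8 genes carry a purple bar.

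Total counts ran from 5124863 to 6213676 per library, and the table counts reads that align to several places. Hspa1a and Hspa1b have nearly identical sequences, and a read aligned to both cannot be assigned to either alone. Their rows were not equal, with Hspa1a at 807 and 370 counts in High and Hspa1b at 4923 and 2519. How many reads they share was not tested. Levels are given as CPM, counts scaled to libraries of a common size with edgeR's TMM factors, and because reads come from 3′ ends the level of a transcript does not grow with its length. Ribosomal RNA made up 26.1% and 38.4% of the High counts and 7.16% to 13.0% of the counts of the other 4 libraries. Replicates of a film had Spearman correlations of 0.622 to 0.672 over the rows, and from 1408 to 2084 rows per film were at 0 in a replicate and held 50 counts or more in its partner. Of the 10 NSPC markers looked at, 9 were in the table, Msi1 and Prom1 were at 0 in every library, and the summed level of the list was 3476 and 3291 CPM in High, 5628 and 5655 CPM in Medium and 4718 and 6489 CPM in Low. The summed level of 8 meningeal and vascular markers was 401 CPM in Medium replicate 2 and between 0 and 35.8 CPM in the other 5 libraries. These lists and the ribosomal RNA share move with the film or with 1 library, and their part in the chaperone values was not tested.

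The cytosolic rows of the members had higher fitted levels on the High film than on the Medium and Low films, most of all the stress-inducible Hspa1b. The differences of the 3 Hspa8 rows were smaller than their standard errors. For Hspa1a, Dnajb1 and Hspb1 the standard errors were large, at 2.12, 1.48 and 2.73. Both mitochondrial chaperonin genes were lower on High. Over the 10 cytosolic rows the median log2 difference of Low and Medium from High was −1.37, beside −0.12 over all 7729 rows tested. A negative value was found in 10 of the 10 rows, where 45.9% of all rows tested had a positive one. The 10 rows are not 10 separate genes, since 3 belong to Hspa8, and Hspa1a and Hspa1b may share reads. In 9 of the 10, the 2 High libraries were above all 4 others, an order found in 10.1% of all rows tested. Both mitochondrial rows had positive values with a median of 0.74, and in both each High library was below all 4 others, as in 8.06% of all rows tested. In bulk RNA, fewer cells that express a gene and less of its RNA per cell cannot be told apart.

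**Figure D2:**
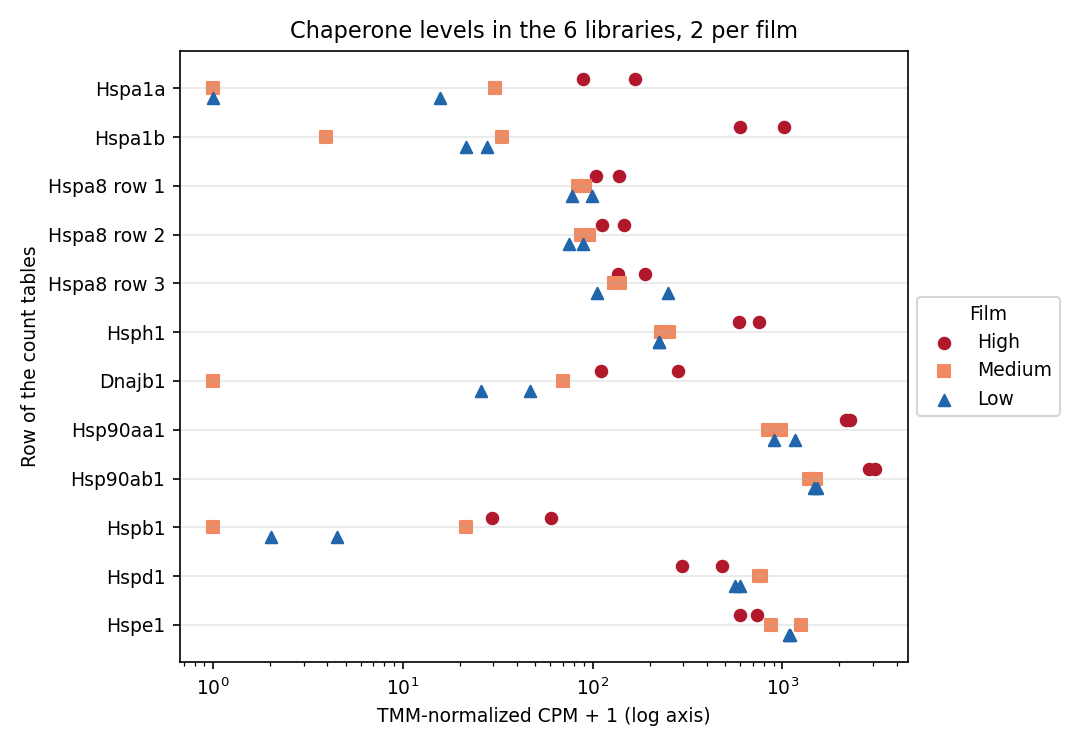
Level of each chaperone row in the 6 libraries, as TMM-normalized CPM plus 1 on a log axis, with circles for High, squares for Medium and triangles for Low. The High circles lie to the right of all other points in 9 of the 10 cytosolic rows and to the left of them in Hspd1 and Hspe1, and the third Hspa8 row is the 1 in which High overlaps the other films.

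Hspa1b encodes a stress-inducible HSP70. Its level was 1014 and 601 CPM in the High libraries, 2.92 and 32.5 CPM in Medium, and 26.8 and 20.6 CPM in Low. The raw counts were 4923 and 2519 on High, 17 and 198 on Medium, and 185 and 123 on Low. The lowest High library thus lay far above the highest of the other 4, and Medium replicate 1 was below the remaining 3. The log2 difference of Low and Medium from High was −5.30 (standard error 0.72), a 39.4-fold lower level. Among all tested rows, Hspa1b ranked at the 98.5th and 97.2nd percentile of levels in the High libraries and between the 36.3rd and the 46.1st in the others.

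Hspa1a encodes the same kind of inducible HSP70 at a neighbouring locus. Its counts were 807 and 370 on High, 0 and 180 on Medium, and 0 and 87 on Low, or 166 and 88.3 CPM in High against 0, 29.5, 0 and 14.6 CPM. On both of the less conductive films 1 replicate was at 0, and the log2 difference of −3.61 had a standard error of 2.12. It was −8.30 without Medium replicate 2 and −3.08 without High replicate 1. With the Hspa1a and Hspa1b counts summed, in which a read aligned to both counts for each of them, the levels were 1181 and 689 CPM in High, 2.92 and 62.0 CPM in Medium and 26.8 and 35.2 CPM in Low. The summed log2 difference was −4.88 (standard error 0.81).

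Hspa8, the constitutive cytosolic HSP70 also known as HSC70, had smaller differences between the films. Its first row was at 136 and 103 CPM in High, 82.4 and 90.0 CPM in Medium, and 77.2 and 98.2 CPM in Low. The second row was at 146 and 110 CPM, at 86.0 and 94.6 CPM, and at 74.2 and 87.8 CPM in the same order. The third row was at 189 and 135 CPM in High, 138 and 129 CPM in Medium, and 104 and 248 CPM in Low, so that here the films overlapped and Low replicate 2 was the highest of all. The log2 differences from High were −0.46 (standard error 0.69), −0.58 (0.67) and −0.08 (0.53), all smaller than their standard errors. The sign of the third turned to 0.30 when libraries were scaled by their size alone. The tables give no position for the 3 rows, and reads that align to several places may be counted in more than 1 of them.

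Hsph1 encodes the HSP110 protein HSP105, which exchanges the nucleotide of HSP70. Its level was 754 and 590 CPM in High, 228 and 251 CPM in Medium, and 223 and 224 CPM in Low. The 4 lower libraries were close to each other, and the log2 difference from High was −1.54 (standard error 0.28), a 2.91-fold lower level. Dnajb1 encodes HSP40, a J-domain partner of HSP70. It was at 281 and 110 CPM in High, 0 and 68.7 CPM in Medium, and 24.9 and 45.7 CPM in Low. Medium replicate 1 had 0 counts of Dnajb1 where Medium replicate 2 had 419, and the log2 difference of −2.49 had a standard error of 1.48. Without Medium replicate 2 that difference was −7.78, and without High replicate 1 it was −1.65.

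The HSP90 genes had the highest levels of the 10 on High and the smallest standard errors, while on Medium and Low the mean level of Hspe1 exceeded that of Hsp90aa1 (1057 against 910 CPM and 1096 against 1035 CPM). Hsp90aa1, the stress-responsive HSP90 alpha, was at 2177 and 2274 CPM in High, 836 and 983 CPM in Medium, and 898 and 1171 CPM in Low. Its log2 difference from High was −1.20 (standard error 0.20), a 2.29-fold lower level. Hsp90ab1, the constitutive HSP90 beta, was at 2876 and 3072 CPM in High, 1377 and 1510 CPM in Medium, and 1472 and 1524 CPM in Low. The 2 films of lower conductivity overlapped, both lay below High, and the log2 difference was −1.02 (standard error 0.17), a 2.02-fold lower level. Hsp90ab1 stayed at or above the 99.0th percentile of all tested rows in every library, and Hsp90aa1 at or above the 97.9th.

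Hspb1 encodes the small heat shock protein HSP27 (HSP25 in rodents), which binds unfolding proteins without ATP. Its counts were few, with 288 and 119 on High, 120 and 0 on Medium, and 24 and 6 on Low. In CPM these are 59.3 and 28.4, then 20.6 and 0, then 3.48 and 1.01. Both High libraries were the highest, Medium replicate 1 came near to High replicate 2, and the log2 difference of −3.18 had a standard error of 2.73. Without Medium replicate 1 it was −7.61.

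Hspd1 encodes HSP60, the barrel of the mitochondrial chaperonin, and Hspe1 encodes HSP10, its lid. Hspd1 was at 479 and 294 CPM in High, 754 and 774 CPM in Medium, and 562 and 596 CPM in Low. The 3 films did not overlap, with Medium highest and High lowest, and the log2 difference of Low and Medium from High was 0.78 (standard error 0.28). Hspe1 was at 734 and 597 CPM in High, 1249 and 866 CPM in Medium, and 1090 and 1102 CPM in Low. High was the lowest film here too, Low lay within the range of Medium, and the log2 difference was 0.69 (standard error 0.24). The size of the Hspd1 difference depended on the High libraries, at 0.47 without High replicate 2 and 1.18 without High replicate 1. Both values thus had the opposite sign to those of the cytosolic chaperones.

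The differences of each film from High, which share the same High libraries, are given side by side. For Hspa1b the log2 difference was −5.09 (standard error 0.96) for Low against High and −5.51 (0.98) for Medium against High. For Hsph1 it was −1.59 (0.34) and −1.49 (0.34). For Hsp90aa1 it was −1.11 (0.24) and −1.29 (0.24), and for Hsp90ab1 −0.99 (0.21) and −1.04 (0.21). Dnajb1 had −2.47 (1.87) and −2.51 (1.87). The mitochondrial Hspd1 had 0.58 (0.32) on Low and 0.98 (0.32) on Medium, and Hspe1 had 0.72 (0.28) and 0.67 (0.28). The third Hspa8 row was the 1 row whose sign differed between the films, at 0.12 (0.62) on Low and −0.28 (0.62) on Medium.

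**Figure D3:**
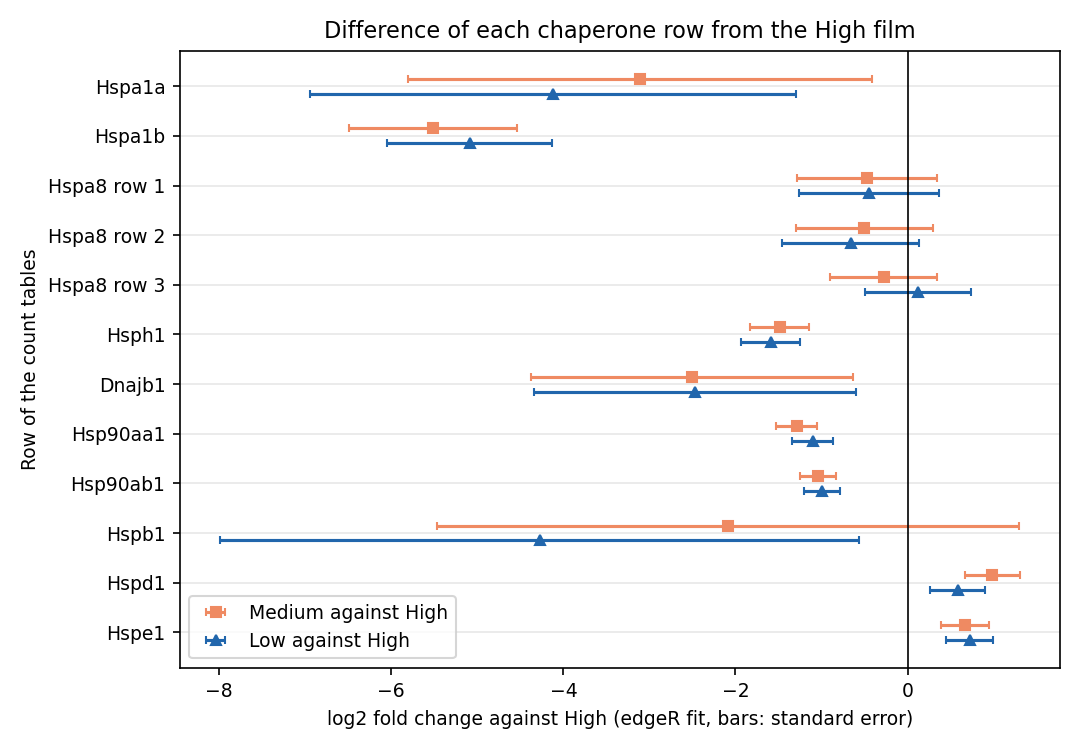
log2 fold change of each chaperone row against High from the edgeR fit, with squares for Medium, triangles for Low and bars of 1 standard error. Hsph1, Hsp90aa1 and Hsp90ab1 lie left of 0 with short bars, Hspa1b lies farthest left, Hspa1a, Dnajb1 and Hspb1 have long bars, and Hspd1 and Hspe1 lie right of 0.

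As a description of calls in the contrast by which the genes were chosen, 1 of the 10 cytosolic rows, Hspa1b, was among the rows lower in Low and Medium past the threshold of 0.05 on the adjusted p of the edgeR fit (0.0906% of the rows tested). The summed row of Hspa1a and Hspa1b was not called, nor was Hspa1b under limma-voom. In the edgeR fit of separate rows 0 of the 2 mitochondrial rows were among the rows higher (0.0388% of the rows tested). For Low against High and for Medium against High 0 member rows passed, where 0.0518% and 0.0129% of all rows did. The 10 calls over all rows were 3 higher and 7 lower, and 8 higher and 6 lower of 14 when libraries were scaled by size alone.

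The comparison of Low with Medium sets only those film means against each other and was tested, although the filter, the scaling and the spread of the fit come from all 6 libraries. In edgeR's quasi-likelihood test 0 of the 12 chaperone rows passed an adjusted p of 0.05, and 0 had an unadjusted p under 0.05. Over all 7729 rows 0 passed (0%) and 117 had an unadjusted p under 0.05, while DESeq2 called 121 rows, none of them a chaperone row. Fitted on the 4 Low and Medium libraries alone, 0 rows passed, chaperone rows included. The log2 difference of Low from Medium was 0.05 (standard error 0.21) for Hsp90ab1, 0.19 (0.24) for Hsp90aa1, −0.10 (0.34) for Hsph1 and 0.05 (0.27) for Hspe1. It was −0.40 (0.32) for Hspd1 and 0.42 (0.82) for Hspa1b. For Dnajb1, Hspa1a and Hspb1 the standard errors were 1.77, 2.52 and 3.39, so that a difference of several-fold between Low and Medium was not detectable in these genes. Without Medium replicate 2, Medium is left with 1 library, assumed to vary like the other films. In that fit Hspa1b was 3.04 higher in Low on the log2 scale and Dnajb1 10.6 higher. The median over all rows of that fit was itself shifted to 0.65. Both fitted values rest on counts of 17 and 0 in Medium replicate 1.

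Taken as a share of the counts outside ribosomal RNA, the 12 rows held 1.08% and 1.01% on High, 0.585% and 0.572% on Medium and 0.545% and 0.606% on Low. The cytosolic rows held 0.935% and 0.894% in High against 0.340% to 0.406% in the other libraries. The mitochondrial rows held 0.145% and 0.112% in High against 0.194% to 0.246%. Within the chaperone counts alone, the mitochondrial share was 13.5% and 11.1% on High, 42.0% and 34.0% on Medium and 36.3% and 33.1% on Low. Of all counts, ribosomal RNA included, the 12 rows held 0.798% and 0.620% in High and 0.498% to 0.560% in the other libraries, a smaller difference between the films. Without molecular identifiers, amplified copies of 1 RNA cannot be separated, and counting intervals would cover counting error only.

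Ratios within a library do not depend on the scaling. The ratio of Hspa1b to the summed Hspa8 rows, the inducible against the constitutive HSP70, was 2.15 and 1.72 on High, 0.00952 and 0.104 on Medium and 0.105 and 0.0476 on Low. Hspa1b counts thus exceeded the summed Hspa8 counts in both High libraries and were a small part of them in the other 4. Reads counted in several Hspa8 rows would make these ratios smaller, and their number was not tested. The ratio of Hsp90aa1 to Hsp90ab1 was 0.757 and 0.740 on High, 0.607 and 0.651 on Medium and 0.610 and 0.769 on Low, so the films overlapped and the log2 difference of Low and Medium from High was −0.19. The ratio of the lid Hspe1 to the barrel Hspd1 was 1.53 and 2.03 on High, 1.66 and 1.12 on Medium and 1.94 and 1.85 on Low, also overlapping. The ratio of Hspd1 to Hsp90ab1 was 0.166 and 0.0958 on High, 0.548 and 0.512 on Medium and 0.382 and 0.391 on Low, without overlap of the films.

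**Figure D4:**
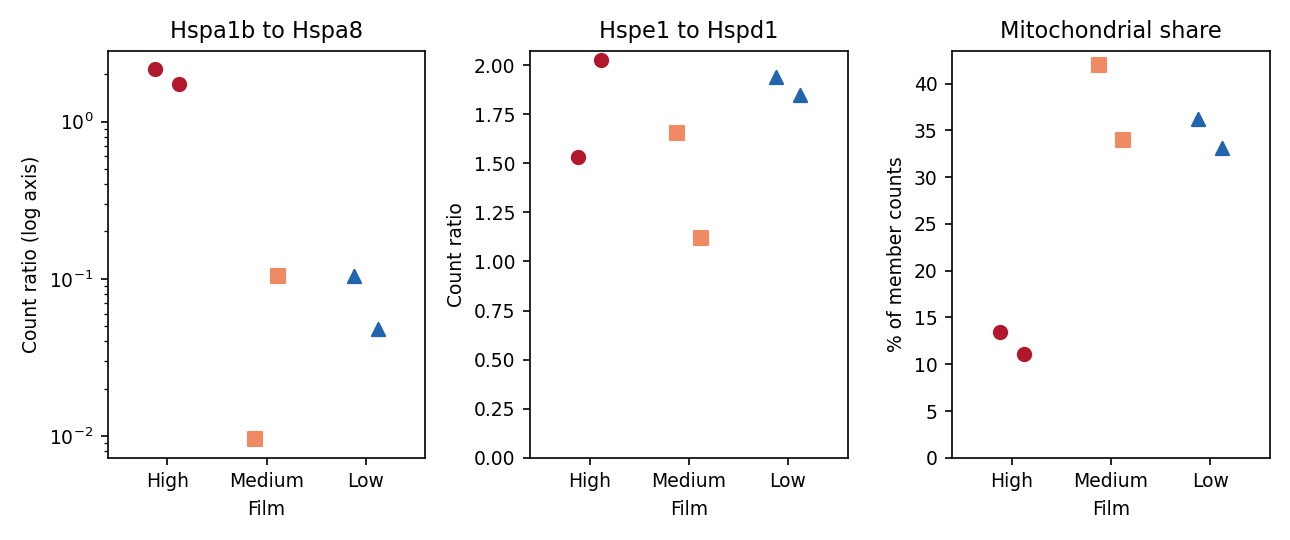
Count ratio of Hspa1b to the summed Hspa8 rows on a log axis, count ratio of Hspe1 to Hspd1, and the mitochondrial share of the chaperone counts in percent, with 1 point per library and the films along the horizontal axis. High stands apart in the first panel (2.15 and 1.72) and in the third (13.5% and 11.1%), while the films overlap in the second.

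Among rows with at least 50 counts in every library, 2808 candidates, the genes whose levels were most like those of Hspa1b over the 6 libraries included Pip5k1a, Gstk1, Lgals3 and Ahsa2, with Pearson's r of log2(CPM + 1) from 0.974 to 0.990. Ahsa2 belongs to the HSP90 co-chaperones and was at 165 and 216 CPM in High, 36.7 and 74.5 CPM in Medium and 59.4 and 67.0 CPM in Low. Pip5k1a, a lipid kinase, was at 1577 and 1333 CPM in High and between 589 and 939 CPM in the other libraries. For the summed Hspa8 rows the genes most like it were LOC100911177, Gba2, Rps3a, Klf10 and Dync1h1, with r from 0.951 to 0.992. LOC100911177 was at 313 and 223 CPM in High, 203 and 193 CPM in Medium, and 148 and 293 CPM in Low. Whether it shares multiply aligned reads with Hspa8 was not tested. Klf10 was at 451 and 302 CPM in High, 216 and 210 CPM in Medium, and 94.3 and 419 CPM in Low, and like Hspa8 it was high in Low replicate 2. The 6 points are 3 pairs of replicates that share a film, and the correlations are a description.

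Beyond the 10 genes, 123 genes of 10 chaperone and co-chaperone lists were looked up, of which 116 were in the table and 96 were tested. When Low and Medium were compared with High by edgeR, 0 of the 96 passed the threshold on the adjusted p, with 43 higher and 53 lower values and a median log2 difference of −0.09, beside −0.12 over all rows. At an unadjusted p under 0.05 there were 8, 3 with a higher value (Nudc, Sec63 and Dnajc19) and 5 with a lower one (Hsp90b1, Dnaja1, Ahsa2, Pfdn1 and Dnajb9), named here after their values were seen. These are 8.33% of the 96, beside 5.50% of all rows tested (425, with 208 higher and 217 lower). Both High libraries were above the other 4 in 11 of the 96 and below them in 12, beside 10.1% and 8.06% of all rows tested. With every library raised to a floor of 3 counts the median was −0.15 over the 96, −0.17 over all rows and −1.37 over the 10 cytosolic rows.

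Other HSP70 and HSP90 genes had 2 higher and 8 lower values, none past the threshold. Hspa4, an HSP110 protein related to Hsph1, was at 2359 and 2442 CPM in High, 1907 and 2138 CPM in Medium, and 2213 and 2250 CPM in Low, a log2 difference of −0.18 (standard error 0.18, edgeR adjusted p = 0.942). Hspa5, the HSP70 of the endoplasmic reticulum, was at 1081 and 1043 CPM, 853 and 863 CPM, and 746 and 1057 CPM in that order, with overlapping films (log2 difference −0.27). Hsp90b1, the HSP90 of the endoplasmic reticulum, was at 595 and 123 CPM in High, so that the High libraries themselves were far apart, and between 26.4 and 172 CPM in the other libraries. The log2 difference of Hsp90b1 was −1.68, and −0.13 without High replicate 1. Trap1, the mitochondrial HSP90, had 0 counts in Medium replicate 1 and 265 in Medium replicate 2, and its log2 difference of −0.08 (standard error 2.12) was −5.05 without Medium replicate 2 and 0.42 without Medium replicate 1.

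Of the J-domain list 15 genes had a higher and 16 a lower value among 31 tested. Dnaja1, an HSP70 partner of the cytosol, was at 695 and 690 CPM in High, 597 and 339 CPM in Medium, and 269 and 338 CPM in Low, a log2 difference of −0.88 (standard error 0.30, edgeR adjusted p = 0.778). Dnajc8 had −0.59. Among the nucleotide exchange and adaptor proteins 3 had a higher and 7 a lower value, and St13 and Stip1, which link HSP70 to HSP90, had −0.42 and −0.47. Among the HSP90 co-chaperones 7 had a higher and 10 a lower value. Ptges3, the co-chaperone p23, had −0.42, and Nudc was at 215 and 181 CPM in High, 656 and 565 CPM in Medium and 303 and 643 CPM in Low (log2 difference 1.44, standard error 0.37, edgeR adjusted p = 0.468).

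Among the 10 genes of mitochondrial protein quality control 6 had a higher and 4 a lower value, with a median of 0.33. Yme1l1, a protease of the inner membrane, was at 18.1 and 42.9 CPM in High, 124 and 109 CPM in Medium, and 62.6 and 83.3 CPM in Low. Grpel1, the nucleotide exchange factor of mitochondrial HSP70, had −0.27 with a standard error of 1.16, and 2.31 without High replicate 1. The 8 genes of the cytosolic chaperonin CCT, the counterpart of HSP60, had a median of 0.05 with 5 higher and 3 lower values, and Cct4 and Cct3 were at 0.01 and −0.19, of which the signs turned to −0.23 and 0.44 without High replicate 1. Of 4 prefoldin genes 2 had higher and 2 lower values, with −0.51 for Pfdn2 and −1.39 for Pfdn1. Of the small heat shock proteins 3 could be tested. Hspb11 had −0.63, and 0.12 without High replicate 2. Cryab, alpha B-crystallin, had 0 counts in both High and both Medium libraries against 164 and 182 in Low. With a floor of 3 counts per High library, Low was 40.7-fold higher than High. The log2 difference of Low from High in the edgeR fit was 10.3 (standard error 5.56, adjusted p = 0.899). A count of 0 is a weak bound here, since many rows were at 0 in a replicate and well covered in its partner.

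For the transcripts of the heat shock factors themselves the films overlapped. Hsf1 had 20.2 and 0 CPM in High, 0 and 36.9 CPM in Medium, and 17.5 and 0.671 CPM in Low, with 1 replicate of each film at or near 0. Hsf2, which can pair with HSF1, was at 133 and 76.1 CPM in High, 18.5 and 119 CPM in Medium, and 117 and 77.9 CPM in Low (log2 difference −0.35, standard error 0.90, and 0.10 without High replicate 1). Hsbp1, which encodes a protein that binds HSF1, was at 209 and 136 CPM in High, 67.8 and 320 CPM in Medium, and 83.9 and 288 CPM in Low. Hsf4 was at 0 in every library. HSF1 is regulated mostly as a protein, which RNA counts do not show.

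**Figure D5:**
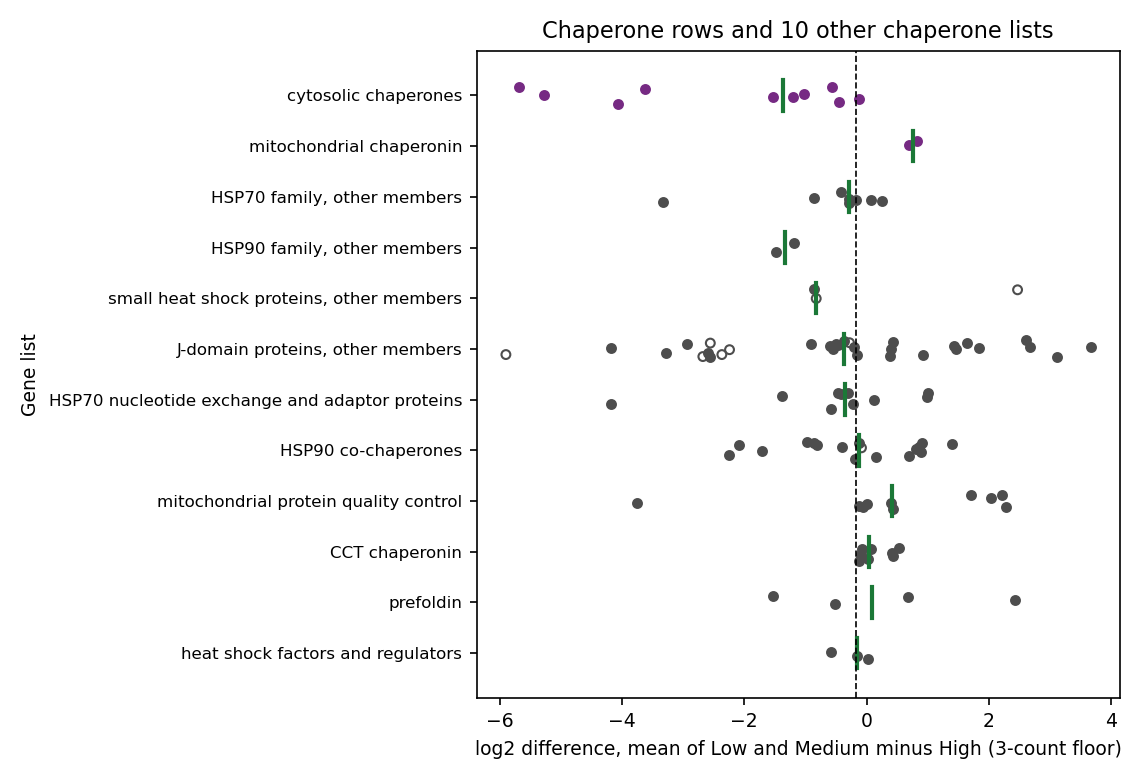
log2 difference of the mean of Low and Medium from High for each tested gene, with every library raised to 3 counts, in the 2 groups of the chaperone genes (purple) and in 10 other lists (grey). Green bars are list medians, open circles are genes with a group at the floor, and the dashed line is the median of all rows (−0.17), with the cytosolic chaperones at −1.37 and the mitochondrial chaperonin at 0.76.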

How the data were processed

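QuantSeq 3′ libraries were aligned by the authors with Bowtie2 and read counts per gene, multiply aligned reads included, were taken with bedtools. The deposited counts are not normalized, with 1 table per library. The submitters' processing notes name the rn6 build, and the annotation is not given in the sources used here. For RNA isolation the labels name Trizol and the methods a Ribospin kit.

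Libraries were grouped by film from their titles. Rows passing filterByExpr (7729) were fitted with edgeR 4.0.16 (R 4.3.3, TMM factors, 3 film means over all 6 libraries, quasi-likelihood test, Benjamini-Hochberg adjustment over all rows, threshold 0.05). The biological coefficient of variation was 1.43, with 3 residual and 6.96 prior degrees of freedom. Standard errors are the log2 difference over the root of F. The alternatives were DESeq2 1.42.0, limma 3.58.1 (voom), other scalings and filters, a replicate block, summed rows and leaving out each library. Summing the Hspa8 rows in a ratio was chosen after seeing the data.

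The members and the lists were chosen with earlier results of these data known. The text names every member, the 2 genes of each list with the highest mean CPM, the measured heat shock factor genes, any list gene with an adjusted p under 0.05, and the 5 genes most correlated with Hspa1b or Hspa8, apart from 1 that is not reported here. Promoter windows came from RefSeq (GRCr8), and percentiles are ranks of CPM within a library among tested rows.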

Additional observations from a re-analysis of the deposited data

How the results depend on the processing

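The counts of genes past the threshold depended strongly on the method. For Low and Medium against High there were 10 calls, and 370 with DESeq2, 23 with limma-voom, 68 without a filter and 56 with a mean count of at least 10. For Low against High there were 4, and 271, 16, 34 and 30 in the same order, with 0 for library sizes alone, 2 without ribosomal RNA rows and 0 when only the groups compared were fitted. For Medium against High there was 1, and 302, 14, 48 and 40, with 0 for library sizes alone and 0 for only the groups compared. For Low against Medium there were 0, and 121 with DESeq2 and 5 without a filter. With 1 library left out the ranges were 34 to 242, 19 to 65, 11 to 275 and 0 to 194, and 65 came without Low replicate 2 and each other highest value without Medium replicate 2. The cause was not tested.

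The chaperone rows called against High by each method are a description, since the genes were chosen with these differences known. DESeq2 called Hspa1b, Hsph1, Hsp90aa1 and Hsp90ab1 lower and Hspd1 and Hspe1 higher in Low and Medium than in High. It called 370 of 9566 rows in all. limma-voom called Hsph1, Hsp90aa1 and Hsp90ab1, among 23 calls over 7729 rows. With the Hspa1a and Hspa1b counts summed, 0 chaperone rows were called, beside 9 of 7671 rows in all. Apart from the last Hspa8 row, every chaperone row kept its sign for Low and Medium against High under all 16 alternatives, with −6.61 to −4.86 for Hspa1b, −1.71 to −1.16 for Hsph1, −1.30 to −0.80 for Hsp90aa1, −1.08 to −0.62 for Hsp90ab1, −9.18 (replicate block) to −3.08 for Hspa1a, 0.47 to 1.18 for Hspd1 and 0.55 to 1.09 for Hspe1. Scaling by library size alone moved the median of all rows from −0.12 to 0.26. The log2 ratio of the members' share of counts between Low and Medium and High was −0.85 outside ribosomal RNA and −0.42 of all counts. The log2 difference of the Hspe1 to Hspd1 ratio was −0.14, and its sign turned without High replicate 2 (0.07) or Medium replicate 2 (0.04). Members with a heat shock element were 75%, and 50% for 3 units.

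No pairing by replicate number was seen in the deviations, which correlated at 0.00655, 0.00342 and 0.00733 between libraries with the same number. Whether libraries with the same number shared a preparation was not tested. With the replicate number as a block the calls over 7729 rows were 57, 30 and 39 for the 3 comparisons with High. For Low against Medium there were 0. The chaperone rows among the 57 for Low and Medium against High, again a description, were Hspa1b, Hsph1, Hsp90aa1 and Hsp90ab1.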
